A study of Mus musculus with 20 samples.

Results

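The glutathione, peroxiredoxin, thioredoxin and related antioxidant genes were followed in whole fetal mouse hearts after maternal exposure to TCDD (2,3,7,8-tetrachlorodibenzo-p-dioxin, a persistent ligand of the aryl hydrocarbon receptor, AhR). Members were chosen by symbol, without use of their values: glutathione S-transferases of the Gsta, Gstm, Gstp, Gstt, Gsto and Gstz families, Mgst1 and Mgst3, glutathione peroxidases (Gpx), peroxiredoxins (Prdx), every symbol beginning with Txn, Sod1 to Sod3, Cat, Gclc, Gclm, Gsr, Gss, Hmox1, Hmox2, Mt1 and Mt2. Earlier results of these data were known when the rule was set. The rule found 65 probe sets for 50 genes, of 8251 genes with a single symbol on the array, and each gene was followed through its brightest probe set. For 46 genes that probe set passed the filter on low signal, and the other 4 (Gsta1, Gsta3, Gstm6 and Gpx5) are left out of every count of signals and tests. Both Prdx1 probe sets carry more than 1 symbol and were left out.

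Total RNA came from hearts collected on gestation day 17.5 and was hybridised to 20 Affymetrix MG-U74Av2 arrays. The 8 control arrays were from fetuses whose dams received corn oil by oral gavage on gestation day 14.5, and 4 arrays each were from dams given 1.5, 3 or 6 µg/kg TCDD. The label of 1 array at 1.5 µg/kg writes the treatment day in an unusable form. No source used here gives the mouse strain, or what 1 array stands for (a heart, a pool or a litter), so p-values measure only the spread between these arrays. The study's design text gives 4 replicates per group, whereas the control labels run from 1 to 8, and both sets of 4 controls were therefore also compared with each other.

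Glutathione is a small cysteine-containing peptide built by glutamate-cysteine ligase (Gclc and Gclm) and glutathione synthetase (Gss) and kept reduced by glutathione reductase (Gsr). Glutathione peroxidases, peroxiredoxins and catalase remove peroxides, superoxide dismutases convert superoxide to hydrogen peroxide, and glutathione transferases couple glutathione to reactive compounds. Many of these genes are known targets of the stress-responsive factor Nrf2, and several transferase genes also respond to AhR in liver. The heart is rich in mitochondria, a major source of superoxide and peroxide in cells.

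Signals on the arrays were closely alike, with correlations of log2 signal between 0.957 and 0.986 for every pair of arrays. All 13 cardiomyocyte markers on the array passed the filter, and their summed signal ran from 163340 to 237724. The ratio of the 3′ to the middle beta-actin control probe set, a sign of RNA length, was high in controls 1, 2 and 6 and in array 4 at 6 µg/kg (log2 ratio 0.89 to 1.33). The AhR target genes outside the antioxidant list, Cyp1a1 and Cyp1b1, rose at every dose, with log2 differences from control of 1.76 ± 0.28 (SE) and 1.39 ± 0.17 at 1.5 µg/kg (adjusted p = 0.00681 and 0.000174) and of 2.93 ± 0.28 and 2.04 ± 0.17 at 6 µg/kg (adjusted p = 1.97e-06 and 1.49e-07). Mean control signals were 39.6 for Cyp1a1 and 79.1 for Cyp1b1, below the 40th percentile used by the filter (101.6 to 127.3 over the arrays). Both genes therefore passed the filter through the TCDD arrays, and adding 32 before taking log2 affects the size of their differences. Because the tissue was measured in bulk, fewer cells of a type and less RNA per cell cannot be told apart.

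No antioxidant gene passed the threshold of 0.05 for the adjusted p at any dose. In limma, 0 of 46 members were called at 1.5 µg/kg, where 0.21% of all 8097 probe sets were called, 0 of 46 at 3 µg/kg (0.0247% of all) and 0 of 46 at 6 µg/kg (0.0741% of all). At an unadjusted p under 0.05 the members numbered 5, 5 and 3 from the lowest to the highest dose, beside 12.6%, 5.72% and 9.15% of all probe sets, and the corresponding shares of members were 10.9%, 10.9% and 6.52%, below that background at 1.5 and 6 µg/kg and above it at 3 µg/kg. The mean of the 3 doses against control and the linear trend over dose also called 0 members, with 0.0494% and 0.0618% of all probe sets called and 5 and 2 members at an unadjusted p under 0.05 (8.68% and 7.22% of all probe sets).

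The arrays bounded the size of these differences. For the mean of the 3 doses, the 95% interval of the difference from control lay within 1.5-fold in either direction for 46 of 46 members, compared with 89.8% of all probe sets. This bound, here and below, is on the scale of log2(signal + 32), and allows a larger fold of the signal itself where signals are low. For single doses, with 4 arrays each, it did so for 39 of 46 members at the lowest, 39 at the middle and 41 at the highest dose (75.1%, 79.4% and 75.3% of all probe sets). Against controls 1 to 4 alone the mean of the doses was bounded in this way for 40 members, and against controls 5 to 8 alone for 43. The median within-group SD of the members was 0.19 on the log2 scale, from 0.10 for Prdx2 to 0.41 for Txnrd3, compared with a median of 0.23 for all probe sets. Members were represented by their brightest probe sets. Neither the SD nor the intervals were compared with probe sets of matched signal, and the part of brightness was not tested. Mean log2 signal was 13.19 for Prdx2, and 6.95 for Gstt2, whose SD was 0.375.

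**Figure D1:**
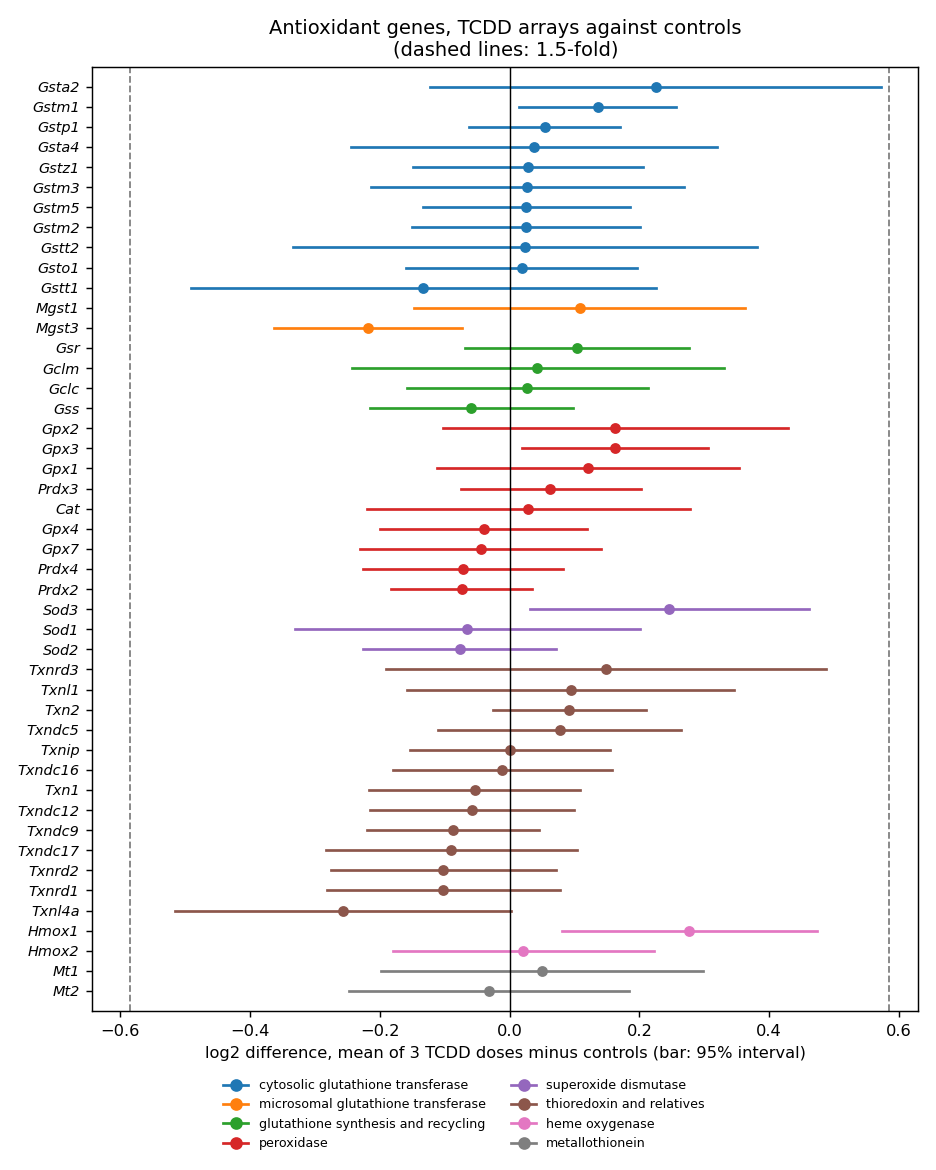
Difference of log2(signal + 32) between the mean of the 3 TCDD doses and the 8 controls, on the horizontal axis, for each of the 46 members, coloured by role; points are limma estimates, bars 95% intervals, and dashed lines mark 1.5-fold. Every bar lies between the dashed lines, and the estimates run from −0.26 for Txnl4a to 0.28 for Hmox1.

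The direction of the members differed between doses. At 1.5 µg/kg 16 of 46 members lay above the controls, beside 51.9% of all probe sets, with a median log2 difference of −0.06. At 3 µg/kg 31 of 46 were above (51.2% of all probe sets) and the median was 0.06, and at 6 µg/kg 28 of 46 were above (49.7%) and the median was 0.04. These small medians moved with the arrays and covariates used. At 1.5 µg/kg the median was −0.018 against controls 1 to 4 alone. At 3 µg/kg the median was 0.02 without array 2 of that dose and 0.025 with a lung epithelial marker score as covariate. At 6 µg/kg it was −0.002 without array 4 of that dose. The comparisons share their controls, and the direction of many members depended on which were used: for the mean of the doses, 23 of 46 members had opposite signs against controls 1 to 4 and against controls 5 to 8. In the direct comparison of 6 with 1.5 µg/kg, the log2 differences use no control array. Of 46 members 31 were higher at 6 µg/kg (50.1% of all probe sets), with a median difference of 0.09. That median also moved with the arrays, to 0.041 without array 1 and 0.035 without array 3 at 1.5 µg/kg. The p-values of this comparison do depend on the controls, because the spread was estimated with the control arrays in the fit. Of the members 0 were called, beside 0.346% of all probe sets, while 6 had an unadjusted p under 0.05 (15.6% of all). Without control 6, 0 members and 0.877% of all probe sets were called.

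Of the genes of glutathione synthesis and recycling, Gsr had the largest difference at 1.5 µg/kg. Its signal was 717, 846, 795 and 646 at 1.5 µg/kg, whereas the controls ran from 497 through a median of 579 to 704. All but the lowest of those values exceeded every control. The log2 difference was 0.32 ± 0.11 (SE) with an adjusted p of 0.232. At 6 µg/kg Gsr read 652, 597, 433 and 511, with 1 array below every control, and the difference from control was −0.12 ± 0.11 (adjusted p = 0.749). Between 6 and 1.5 µg/kg it was −0.44 ± 0.13 (adjusted p = 0.107), which missed the threshold.

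Gclc, the catalytic subunit of glutamate-cysteine ligase, and Gss stayed within 0.13 log2 units of the controls at each dose. Gclc signals ran from 208 to 311 in the controls, were 222, 229, 220 and 276 at 1.5 µg/kg and 252, 267, 249 and 255 at 3 µg/kg, and were 333, 278, 287 and 216 at 6 µg/kg. Only 1 of those 12 TCDD values lay outside the control range. Gss had 3 values outside the control range of 410 to 520, with 1 array at 3 µg/kg just above it, another at 383 and an array at 6 µg/kg at 352.

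Gclm, the modifier subunit that raises the activity of the ligase, gave different answers with different controls (probe set 160335_at; gene at chr3:122245487-122267215, GRCm38.p6). Its signal was 206, 187, 212 and 255 in controls 1 to 4 but 335, 354, 374 and 522 in controls 5 to 8. These sets did not overlap, and the mean of every dose lay between theirs: signals were 309, 267, 299 and 232 at 1.5 µg/kg, 266, 300, 270 and 281 at 3 µg/kg, and 297, 364, 342 and 411 at 6 µg/kg. The difference between control sets, 1 to 4 minus 5 to 8, was −0.78 ± 0.14 log2 units (adjusted p = 0.00684). At 6 µg/kg Gclm differed by 0.25 ± 0.19 from all controls (adjusted p = 0.689), by 0.64 from controls 1 to 4 alone (adjusted p = 0.016, with 2.31% of all probe sets called) and by −0.14 from controls 5 to 8 alone (adjusted p = 0.981). The call at 6 µg/kg therefore existed for 1 set of controls and was absent for the other.

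The promoter of Gclm is shown because Gclm had the largest difference of any member in any comparison, and because its window is 1 of 3 among members to hold all the motifs searched. The sequence covers 250 bases before to 50 after the start that the RefSeq promoter table uses, which lies inside the gene span given above (RefSeq, GRCm38.p6, chr3:122245307-122245606, plus strand). Capitals mark matches, on either strand, to GCGTG (the AhR response core), TGACNNNGC (the antioxidant response core bound by Nrf2) and TGCACNC or TGCGCNC (the metal response core); overlapping matches run together.
Gclm: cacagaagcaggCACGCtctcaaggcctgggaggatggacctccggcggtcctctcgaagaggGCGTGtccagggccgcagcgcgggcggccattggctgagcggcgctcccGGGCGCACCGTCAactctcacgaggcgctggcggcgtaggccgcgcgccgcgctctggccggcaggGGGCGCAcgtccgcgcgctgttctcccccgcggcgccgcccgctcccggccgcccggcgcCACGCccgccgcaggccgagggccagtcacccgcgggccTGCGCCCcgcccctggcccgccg
The window holds 3 matches to GCGTG, 1 to TGACNNNGC and 3 to the metal response core. A match in letters is a description and does not show that a factor binds there.

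Of all 50 genes, the 4 below the filter included, 42 have a promoter in the RefSeq table. Among these GCGTG occurred in 25 (59.5%, compared with 35.2% of all genes in the table), TGACNNNGC in 8 (19%, compared with 14%) and the metal response core in 14 (33.3%, compared with 28.2%). All motifs together occurred in the windows of Gclm, Mt2 and Gstm5, 7.14% of members and 2.23% of all genes.

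The control difference was not confined to Gclm. In limma, 8 of 46 members had an unadjusted p under 0.05 between the control sets (17.4%, beside 14.9% of all probe sets). After adjustment 2 of 46 members (4.35%) passed the threshold between controls 1 to 4 and controls 5 to 8, both lower in controls 1 to 4. Of all probe sets 1.57% were called and 0.729% were called lower. Besides Gclm this was Gpx4, the peroxidase that reduces lipid hydroperoxides in membranes (94897_at, chr10:80047166-80056439). Gpx4 read 905, 940, 1045 and 1173 in controls 1 to 4 and 1405, 1258, 1344 and 1287 in controls 5 to 8, without overlap. The difference was −0.38 ± 0.09 log2 units (adjusted p = 0.0339). Without controls 1, 2 and 6 and array 4 at 6 µg/kg, the arrays of high beta-actin ratio, it was −0.27 (adjusted p = 0.211), and it missed the threshold when any 1 of controls 1, 2, 5, 7 or 8 was left out (adjusted p = 0.125, 0.136, 0.116, 0.109 and 0.0707).

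All 9 peroxidase genes were lower in controls 1 to 4, with a median log2 difference of −0.13, whereas 50.3% of all probe sets lay above 0. Among the 13 thioredoxin-related genes 9 were higher in controls 1 to 4. Groups of controls did not overlap for 6 of 46 members (13%, beside 8.03% of all probe sets): Gclm and Gpx4 were lower in controls 1 to 4, and Gsto1, Gstz1, Txndc16 and Txnrd1 were higher. Txnrd1, the cytosolic thioredoxin reductase, read 1134, 1089, 1187 and 1039 in controls 1 to 4 and 835, 1027, 771 and 913 in controls 5 to 8 (log2 difference 0.32 ± 0.12, adjusted p = 0.182).

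The summed signal of the hepatocyte list, and less clearly that of the thymus list, differed between the control sets. Of 11 hepatocyte genes on the array 5 passed the filter, and the summed signal of the list was 715 to 1099 in controls 1 to 4 and 1146 to 2242 in controls 5 to 8. The thymus list, with 2 of 6 genes past the filter, summed to 237 to 415 and to 415 to 611, ranges that meet. That sum came mainly from Rag1 and Dntt, with mean control signals of 225 and 82. The T-cell genes Cd3e, Cd3g, Cd8a and Ptcra failed the filter, with mean control signals of 14.6 (Cd3g) to 24.9 (Ptcra). Ranges of the control sets overlapped for the erythroid list (7 of 9 genes past the filter), at 33428 to 37035 and 35232 to 47324, and for the macrophage list (8 of 10), at 2983 to 3334 and 2725 to 3104. The part of these cell types in the control difference was not tested beyond the covariates that follow. With the hepatocyte score as a covariate the Gclm difference between control sets was −0.78 (adjusted p = 0.0508), and with the erythroid score it was −0.70 (adjusted p = 0.0671).

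**Figure D2:**
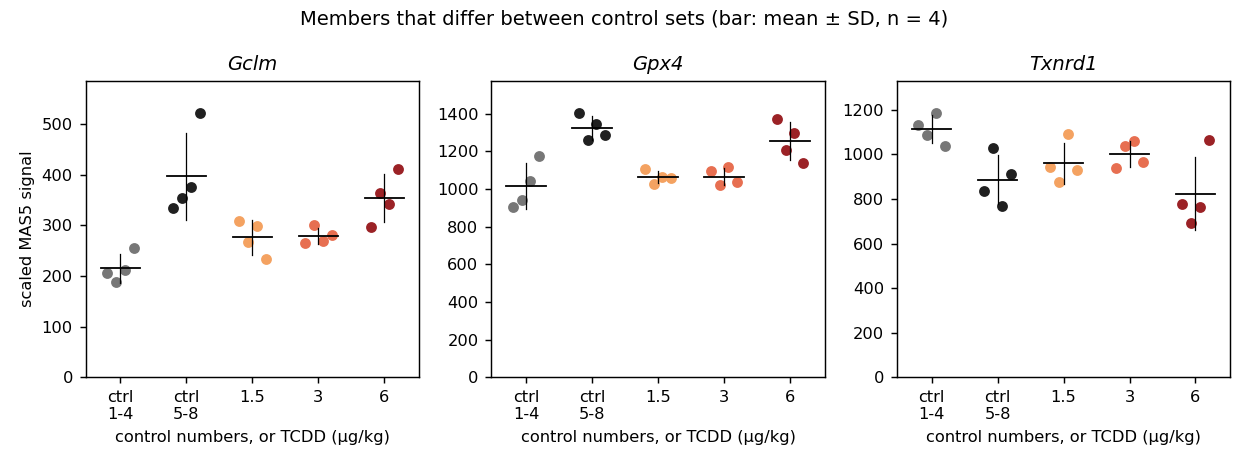
Scaled MAS5 signal (vertical axis, linear) of Gclm, Gpx4 and Txnrd1 in each array, with controls 1 to 4 and 5 to 8 apart and the TCDD doses in µg/kg; bars are the mean ± SD of 4 arrays. Gclm and Gpx4 lie lower and Txnrd1 higher in controls 1 to 4 than in controls 5 to 8, without overlap.

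Among the remaining peroxidases none was called at a dose. Gpx3, the secreted glutathione peroxidase, had the smallest p of the family at 6 µg/kg. It read 7257, 7526, 7762 and 8208 at 6 µg/kg, and the controls ran from 5568 through a median of 6669 to 7796. Only 1 array at 6 µg/kg exceeded the highest control. The log2 difference was 0.21 ± 0.09 (adjusted p = 0.516), and between control sets it was −0.23 ± 0.10 (adjusted p = 0.249), of similar size. Prdx2, a cytosolic peroxiredoxin that is also abundant in red cells, read 9060 to 10616 in the controls and 7660 to 9308 at 1.5 µg/kg, a difference of −0.14 ± 0.07 (adjusted p = 0.423). Another Prdx2 probe set past the filter (99608_at) was not lower, at 871, 667, 701 and 666 against 552 to 791 in the controls. With the mean of all kept probe sets the Prdx2 difference at 1.5 µg/kg was −0.016. Over the mean of the doses the other peroxidases, Gpx1, Gpx2, Gpx7, Cat, Prdx3 and Prdx4, differed by −0.07 (Prdx4) to 0.16 (Gpx2), with adjusted p from 0.74 to 0.964.

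Extracellular superoxide dismutase, Sod3, was the member that did not overlap between 1.5 µg/kg and control (1 of 46 members, beside 1.46% of all probe sets). Its signal was 320, 430, 279 and 302 at 1.5 µg/kg and 196 to 273, with a median of 243, in the controls. At 3 µg/kg it was 326, 260, 287 and 346, with 1 array inside the control range, and at 6 µg/kg it was 217, 289, 322 and 174, spanning values below and above every control. The log2 differences of 0.41 ± 0.14 at 1.5 µg/kg (adjusted p = 0.221), 0.30 ± 0.14 at 3 µg/kg (adjusted p = 0.854) and 0.03 ± 0.14 at 6 µg/kg (adjusted p = 0.971) did not pass the threshold.

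Cytosolic Sod1 showed single arrays far from the rest. It was 6162 in control 6 and 5890 in array 4 at 6 µg/kg, whereas the other controls lay at 2913 to 4354 and the other arrays at 6 µg/kg at 2817 to 2940. Both arrays are among the 4 with a high beta-actin ratio. The remaining arrays of high ratio, controls 1 and 2, read 4172 and 4354, and the part of the ratio in the Sod1 values was not tested. At 6 µg/kg Sod1 differed from control by −0.16 ± 0.17 log2 units (adjusted p = 0.787). Mitochondrial Sod2 differed by −0.08 ± 0.07 over the mean of the doses (adjusted p = 0.791).

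Heme oxygenase 1, Hmox1, degrades heme and is a classical Nrf2 target (160101_at, chr8:75093618-75100593). Its signal in the controls ran from 444 through a median of 595 to 686.2. It was 647, 949, 621 and 839 at 1.5 µg/kg, 720, 756, 686.4 and 824 at 3 µg/kg, and 668, 807, 520 and 561 at 6 µg/kg. The arrays at 3 µg/kg lay above every control, the lowest of them by 686.4 against 686.2, and Hmox1 was the 1 member of 46 without overlap at that dose (0.543% of all probe sets). At 1.5 µg/kg 2 arrays and at 6 µg/kg 3 arrays lay inside the control range, and 0 of 46 members were free of overlap at 6 µg/kg (0.852% of all probe sets).

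The Hmox1 difference from control was 0.36 ± 0.13 log2 units at 1.5 µg/kg (adjusted p = 0.232), 0.35 ± 0.13 at 3 µg/kg (adjusted p = 0.717) and 0.12 ± 0.13 at 6 µg/kg (adjusted p = 0.789). Over the mean of the doses it was 0.28 with a 95% interval of 0.08 to 0.47, the largest estimate among members (adjusted p = 0.389). Hmox2, the constitutive form, differed by 0.02 ± 0.10 (adjusted p = 0.97). Macrophage markers, with 8 of 10 genes past the filter, moved with exposure: their summed signal was 2725 to 3334 in the controls, 3407 to 3749 at 1.5 µg/kg, 3475 to 3993 at 3 µg/kg and 3656 to 3998 at 6 µg/kg, with no overlap between control and TCDD arrays. Their part in the Hmox1 and Sod3 values was not tested.

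**Figure D3:**
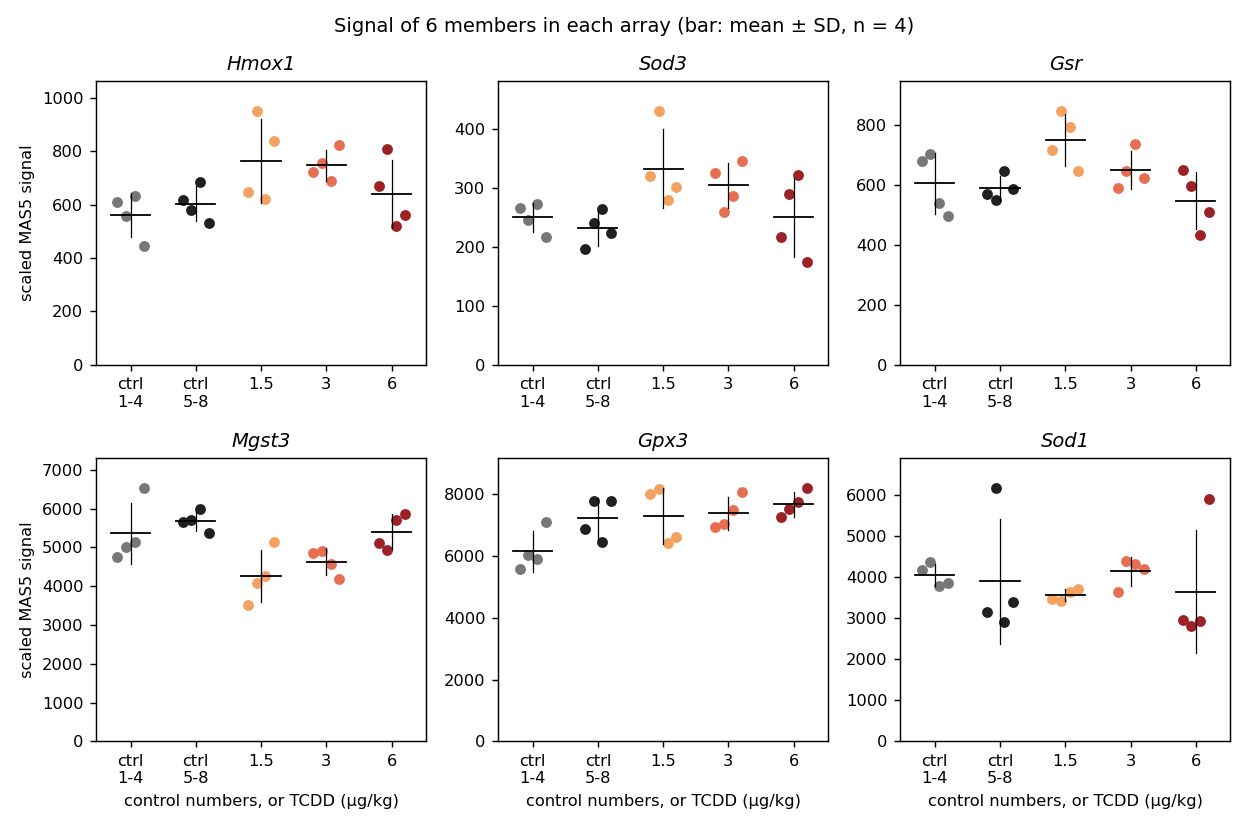
Scaled MAS5 signal (vertical axis, linear) of Hmox1, Sod3, Gsr, Mgst3, Gpx3 and Sod1 in each array, with controls 1 to 4 and 5 to 8 apart and the TCDD doses in µg/kg; bars are the mean ± SD of 4 arrays. Hmox1 and Sod3 sit highest at 1.5 and 3 µg/kg, Mgst3 lowest at 1.5 µg/kg, and Sod1 has 1 high array among controls 5 to 8 and 1 at 6 µg/kg.

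Of the microsomal transferases, Mgst3 came nearest the threshold at a dose among the members' brightest probe sets (96258_at, chr1:167371966-167393841). Mgst3 is a membrane enzyme with glutathione transferase and peroxidase activity. It read 3527, 4095, 4273 and 5136 at 1.5 µg/kg and 4764 to 6533, with a median of 5521, in the controls. All but the highest of those arrays lay below every control. The log2 difference was −0.38 ± 0.09 (adjusted p = 0.0955).

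Its side of the threshold depended on the arrays used. Against controls 5 to 8 alone Mgst3 was called at −0.43 (adjusted p = 0.0318), where 1.89% of all probe sets were called, and against controls 1 to 4 alone it was −0.33 (adjusted p = 0.338). Without array 4 at 1.5 µg/kg it was called at −0.47 (adjusted p = 0.0385), and without array 1 it was −0.29 (adjusted p = 0.363). At 3 µg/kg Mgst3 read 4862, 4921, 4586 and 4183 (difference −0.25 ± 0.09, adjusted p = 0.728). At 6 µg/kg it read 5116, 4930, 5718 and 5855, inside the control range throughout, and differed by −0.03 ± 0.09 (adjusted p = 0.944). The difference between 6 and 1.5 µg/kg was 0.35 ± 0.11 (adjusted p = 0.12). The summed signal of the brown fat list was also low at 1.5 µg/kg, at 483 to 616 beside 579 to 1143 in the controls, with 2 of 4 genes past the filter. The largest fall was in Fabp4 (mean 382 in the controls and 212 at 1.5 µg/kg), followed by Cidea (323 and 268). Ucp1 (63 and 51.5) and Adipoq (31.4 and 34.7) failed the filter. The part of these genes' cells in the Mgst3 values was not tested.

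Mgst1, an endoplasmic reticulum transferase, read 356, 363, 436 and 375 at 1.5 µg/kg and 570, 612, 445 and 467 at 6 µg/kg. These arrays did not overlap, as was also true of Gpx4 (2 of 46 members, beside 8.83% of all probe sets). The Mgst1 difference of 0.42 ± 0.19 between these doses had an adjusted p of 0.294. The controls, at 297 to 612, covered the range of both doses.

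Cytosolic transferases gave 11 measured genes and none was called. Gstm1 was highest at 3 µg/kg, at 3892, 3889, 3751 and 3588, where the controls ran from 3071 through a median of 3254 to 3770; 2 arrays exceeded every control, and the log2 difference was 0.19 ± 0.08 (adjusted p = 0.779). The second Gstm1 probe set (161633_r_at) behaved differently at 1.5 µg/kg, where it read 330, 493, 471 and 534 against 218 to 339 in the controls. Its difference of 0.69 ± 0.15 missed the threshold (adjusted p = 0.0522), whereas the brightest Gstm1 probe set differed by 0.09 ± 0.08 at that dose. Gstm genes are related in sequence and their probes may cross-hybridise, so a probe set cannot be given to 1 of them with certainty.

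Gstp1, which conjugates electrophiles in many tissues, read 3836 to 4863 in the controls and 3889 to 4823 over all TCDD arrays, and its difference stayed within 0.10 log2 units at each dose. By brightest probe sets, Gstm5 had the largest increase of the cytosolic enzymes between 1.5 and 6 µg/kg, at 0.29 ± 0.12 (adjusted p = 0.238). Its probe set 100629_at was also higher, at 592 to 789 and then 702 to 992. Probe set 100631_r_at did not rise, reading 72, 365, 363 and 351 and then 403, 283, 184 and 119. With the mean of all kept probe sets the Gstm5 difference was 0.157. Gsta4, which conjugates lipid peroxidation products, was 81 in 1 array at 1.5 µg/kg and 187 to 210 in the rest, while the controls lay at 140 to 255. The difference at that dose was −0.21 ± 0.18 (adjusted p = 0.667). Gstt1 was similarly uneven at 6 µg/kg, with 48 in 1 array and 134 to 185 in the others, and differed by −0.32 ± 0.23 from control (adjusted p = 0.677). Without the lowest array, array 3, the difference was −0.004 (adjusted p = 0.997). Gsto1 and Gstz1 differed by at most 0.09 from all controls at each dose, less than between the control sets (0.25 ± 0.12 and 0.34 ± 0.11). Over the mean of the doses the 11 genes ran from −0.13 for Gstt1 to 0.23 for Gsta2, the latter with a 95% interval of −0.12 to 0.57.

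Thioredoxins and their relatives made up 13 members. Txnrd1 and the mitochondrial reductase Txnrd2 had their lowest means at 6 µg/kg. Txnrd1 read 776, 691, 765 and 1066 at that dose, with 2 arrays below the lowest control (771). The log2 difference was −0.27 ± 0.12 (adjusted p = 0.513), smaller than the 0.32 between control sets. Txnrd2 read 235, 266, 255 and 275 at 6 µg/kg and 250 to 358 in the controls (−0.24 ± 0.11, adjusted p = 0.526). Txn1, the cytosolic thioredoxin, differed by −0.05 ± 0.08 over the mean of the doses (adjusted p = 0.875). The whole set ran from −0.26 for Txnl4a to 0.15 for Txnrd3 in that comparison, and Txnip, which encodes an inhibitor of thioredoxin, stood at 0.001 ± 0.07.

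Txnl4a belongs here by symbol only, being a component of the spliceosome. It read 904, 884, 1290 and 1256 at 1.5 µg/kg and 974, 1142, 1076 and 1310 at 3 µg/kg, where the controls ran from 1064 through a median of 1520 to 1930. Differences were −0.45 ± 0.17 (adjusted p = 0.258) and −0.38 ± 0.17 (adjusted p = 0.829). At 6 µg/kg it read 1296, 1107, 1804 and 2143, and 1 array exceeded every control. With the beta-actin ratio as a covariate the difference at 1.5 µg/kg was −0.31 (adjusted p = 0.345).

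Metallothioneins Mt1 and Mt2 are small metal-binding proteins whose genes lie side by side (chr8:94178883-94180327 and chr8:94172618-94173567, GRCm38.p6) and respond to zinc and cadmium. Their promoters are printed because the pair varied together between arrays. Windows and capitals are as for Gclm, both on the plus strand, at chr8:94178839-94179138 and chr8:94172368-94172667. The start used for Mt1 lies inside its gene span, and that for Mt2 is the first base of its span.
Mt1: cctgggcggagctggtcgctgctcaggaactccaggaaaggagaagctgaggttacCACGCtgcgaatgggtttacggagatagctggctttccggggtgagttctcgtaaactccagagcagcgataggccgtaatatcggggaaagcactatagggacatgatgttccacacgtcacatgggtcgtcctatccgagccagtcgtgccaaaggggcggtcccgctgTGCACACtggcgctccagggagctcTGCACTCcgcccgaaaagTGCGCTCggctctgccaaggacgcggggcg
Mt2: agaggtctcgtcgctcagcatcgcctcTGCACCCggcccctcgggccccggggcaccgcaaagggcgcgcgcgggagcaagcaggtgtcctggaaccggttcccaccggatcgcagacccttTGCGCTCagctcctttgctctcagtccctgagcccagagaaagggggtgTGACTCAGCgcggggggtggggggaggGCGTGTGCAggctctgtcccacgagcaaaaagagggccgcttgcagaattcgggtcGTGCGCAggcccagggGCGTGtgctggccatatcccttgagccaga
Mt1 holds 3 matches to the metal response core, 1 to GCGTG and 0 to TGACNNNGC, and Mt2 holds 4, 2 and 1.

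Neither gene was called at any dose. Mt1 read 3240 to 4999 in the controls with a median of 4055, and 3887, 5186, 2721 and 5118 at 1.5 µg/kg, 4140, 4630, 4110 and 5030 at 3 µg/kg, and 3831, 2796, 4218 and 5804 at 6 µg/kg. Values at 1.5 and 6 µg/kg lay both below and above every control. Mt2 read 1689 to 2916 in the controls, 1631 to 2479 at 1.5 µg/kg, 2340 to 2714 at 3 µg/kg and 1730 to 2731 at 6 µg/kg. Over the mean of the doses Mt1 differed by 0.05 ± 0.12 (adjusted p = 0.935) and Mt2 by −0.03 ± 0.10 (adjusted p = 0.952).

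Across the 20 arrays the log2 signals of Mt1 and Mt2 had a Pearson r of 0.652 (permutation p = 0.00196) and a Spearman rho of 0.605 (permutation p = 0.00576). Without array 3 at 1.5 µg/kg and array 2 at 6 µg/kg, the arrays farthest from the median of Mt1, r was 0.472 (permutation p = 0.0483). Within the 12 TCDD arrays r was 0.837 (permutation p = 0.00075), and within the 8 controls it was 0.316 (exact permutation p = 0.459). This was the only pair of members examined in this way, and the difference between controls and TCDD arrays was not tested.

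**Figure D4:**
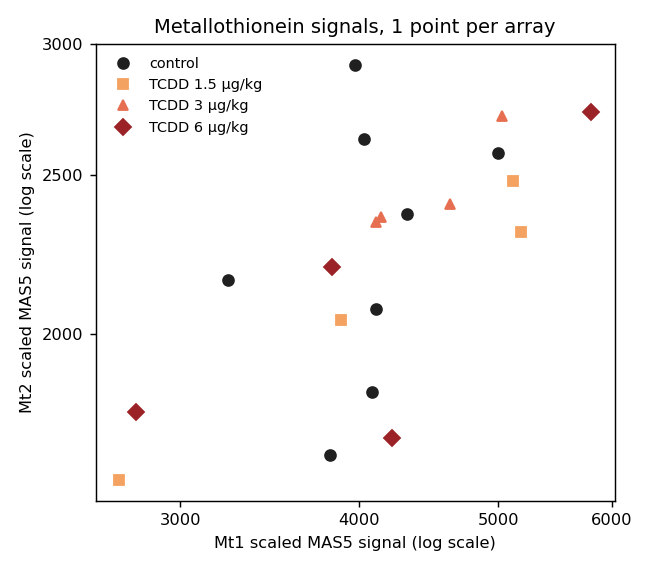
Scaled MAS5 signal of Mt1 (horizontal) and Mt2 (vertical), both on log axes, 1 point per array, with symbols for the controls and each TCDD dose. Arrays high in Mt1 tend to be high in Mt2 (r = 0.652 over the 20 arrays, 0.837 within the TCDD arrays and 0.316 within the controls).

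Of 54 further genes of the Nrf2, AhR, metal and redox pathways, 30 passed the filter. At each dose 2 of the 30 were called higher than control and 0 lower, and these were Cyp1a1 and Cyp1b1. Of all probe sets, 0.21%, 0.0247% and 0.0741% were called from the lowest to the highest dose. The list, with Cyp1a1 and Cyp1b1 in it, was chosen with earlier results of these data known. Cyp1a1 and Cyp1b1 passed the filter through the TCDD arrays, where they were high, so their place among the 30 is not independent of these calls. Nfe2l2, which encodes Nrf2, differed by 0.24 ± 0.11 at 6 µg/kg (adjusted p = 0.513), and Nqo1, a quinone reductase controlled by both AhR and Nrf2, by 0.17 ± 0.16 (adjusted p = 0.75). Mean Nqo1 signal was low, at 93.2 in the controls and 108 at 6 µg/kg, near the filter percentile of 101.6 to 127.3. Fold changes of such signals are understated on the scale used. Between the control sets 0 of the 30 were called, with 2 at an unadjusted p under 0.05 beside 14.9% of all probe sets.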

How the data were processed

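Total RNA from fetal mouse hearts was measured on 20 MG-U74Av2 arrays. The authors deposited 1 signal intensity per probe set, made with MAS5 per the submitters' processing notes (version not given in the sources used here). The deposited 2% trimmed means of 500.28 to 500.341 show that arrays had been scaled alike. Arrays were scaled to 500, values taken as log2(signal + 32), and probe sets kept where at least 4 arrays reached their own 40th percentile (8097 of 12422). Fold changes of low signals are understated on this scale. MAS5 signals carry no read depth, and the number of arrays limits the precision.

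limma 3.58.1 in R 4.3.3 (lmFit, contrasts.fit, eBayes with intensity trend) was fitted to all 20 arrays, two-sided, with Benjamini-Hochberg adjustment over the 8097 probe sets of each comparison. The fits were tested on simulated data. Correlations used 100000 permutations, or every permutation for 8 arrays. Symbols came from the platform annotation, and coordinates and promoters from RefSeq GRCm38.p6. Signals of different genes were compared only to choose which member of a family to name. The members and gene lists were chosen with earlier results of these data known. Members named with values were those called in any comparison, the 3 smallest p in each direction per dose comparison, known pathway targets and the brightest of each family; other members were named after their values were seen, as the ends of a range, the rest of a role, or members free of overlap or called under an alternative. Alternatives covered scaling, pseudocount, filter, control set, covariates, array weights and leaving out each array.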

Additional observations from a re-analysis of the deposited data

Results flagged for a closer look

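Of 100 groups examined (25 genes in 4 groups), 8 had an array standing apart from the others of its group, and chance flags about 1 group in 20. Sod1 read 6162 in control 6, with the next control at 4354, and 5890 in array 4 at 6 µg/kg, with the next at 2940. In the same array at 6 µg/kg Gss was lowest at 352, with the next at 473, and Gsto1 highest at 1492, with the next at 1114. Prdx2 was lowest in array 2 at 6 µg/kg, at 8585 beside 9837. Gclc was highest in array 4 at 1.5 µg/kg, at 276 beside 229, and Mt2 was highest in array 4 at 3 µg/kg, at 2714 beside 2399. Gstt1 was highest in control 2, at 256 beside 172. Of these 8 values, 5 came from arrays of high beta-actin ratio.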

How the results depend on the processing

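At 3 µg/kg, for the mean of the doses and for 6 against 1.5 µg/kg, the count of members called was 0 under every alternative run. At 1.5 µg/kg it was 1 (Mgst3) against controls 5 to 8 alone, with 1.89% of all probe sets called, and 0 to 1 with 1 array left out. At 6 µg/kg it was 1 (Gclm) against controls 1 to 4 alone, and the trend over dose likewise gave 1 (Gclm, 0.10 per µg/kg), with 2.31% and 2.04% of all probe sets called. Same-numbered arrays showed no clear pairing in their deviations from the group means. Correlations of these deviations ran from −0.22 to 0.21 over the 24 same-numbered pairs, with 5 above 0.1. Pairs of different numbers ran from −0.243 to 0.328. With the replicate number as a block and controls 1 to 4, the count was also 1 at 6 µg/kg and 1 for the trend (Gclm, adjusted p = 0.0338 and 0.0372). Between control sets the count was 2, and 1 to 2 with 1 array left out. It was 1 with the beta-actin ratio (Gclm), lung score (Gclm) or hepatocyte score (Mt2) as covariate, 0 with the erythroid score, 1 without intensity trend (Gclm), 6 with array weights (Gclm, Gpx4, Mt2, Txndc17, Txnip and Txnrd1; 762 of all probe sets, 9.41%), 3 with the mean of all kept probe sets (Gclm, Gpx4 and Gstm2), 0 with only the groups compared, and 1 without the 4 arrays of high beta-actin ratio. The hepatocyte covariate and the removal of the 4 arrays were added after seeing the data, and the causes were not tested.

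Signs against controls 1 to 4 and controls 5 to 8 were opposite for 17 of 46 members at 1.5 µg/kg, 21 at 3 µg/kg, 22 at 6 µg/kg, 23 for the mean of the doses and 16 for the trend. Among the gene differences followed through every alternative, signs turned for Gclm, Gpx4 and Gstt1. Against controls 1 to 4, with or without the block, Gclm read 0.32 at 1.5 and 0.34 at 3 µg/kg, and Gpx4 0.072 at 1.5 and 0.074 at 3 µg/kg and 0.15 for the mean of the doses. Against controls 5 to 8 Gclm read −0.14 at 6 µg/kg, −0.35 for the mean and −0.006 for the trend, and Gpx4 −0.077 and −0.002 at 6 µg/kg and for the trend. Gclm's mean of the doses was −0.042, −0.025, −0.035 and −0.078 with the beta-actin, lung, erythroid and hepatocyte covariates, −0.081 with array weights, −0.13 without the 4 arrays, and −0.036 to 0.16 with 1 array left out. With 1 array left out, Gclm ran from −0.148 to 0.043 at 1.5 µg/kg (0.003 without array 4 of that dose) and from −0.13 to 0.06 at 3 µg/kg, both highest without control 8, and Gstt1's trend ran from −0.06 to 0.01, the highest without array 3 at 6 µg/kg.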
